A study of Danio rerio with 4 samples.

Results

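The genes of the cytosolic ribosome's own proteins were followed in zebrafish (Danio rerio) brain, in 4 RNA sequencing libraries. They were chosen by name alone: every gene in the authors' table whose symbol starts with rpl or rps followed by a number, by a, or by the P0 to P2 stalk designations, without the rps6k kinases. This took 84 of the 32520 genes listed. Of these, 48 were assigned to the large subunit and 35 to the small subunit, by symbol alone. The remaining gene, rps19bp1, codes for a protein named as a binding partner of ribosomal protein S19 and was kept apart from the counts below, which run over 83 genes.

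The cytosolic ribosome translates the messenger RNA of nuclear genes. Its small subunit reads the message and its large subunit joins the amino acids, and each subunit carries 1 copy of nearly every ribosomal protein on a scaffold of ribosomal RNA, apart from the stalk proteins P1 and P2. Cells make these proteins in matched amounts. In mammals the messages share a pyrimidine-rich start (the TOP motif) through which the growth kinase mTOR governs their translation, and unassembled ribosomal proteins are degraded. In neurons, ribosomes serve translation in the cell body and at synapses, which memory formation draws on.

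The brains came from wild-type fish. Each group was 1 library: a control in 0.1% DMSO (dimethyl sulfoxide, the solvent), and butylparaben (BuP), an ester used as a preservative, at 0.01, 0.1 and 1.0 mg/L, called the low, middle and high dose below. The labels name DMSO for the control only. The title concerns chronic exposure, light sensitivity and memory. The labels do not say whether a library pools several fish, nor their sex and age. With 1 library per group there is no replicate and no test: each difference is between libraries, and the intervals below cover counting error only. In whole tissue, fewer cells of a type and less RNA per cell cannot be told apart.

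Library totals lay between 9750590 and 11099317 counts. Mitochondrially encoded genes held 29.3% of counts in the control, 32.3% at the low dose, 26.3% at the middle dose and 28.2% at the high dose. The control stood apart in its egg coat RNA: 20 egg coat genes held 7096 counts in it, against 143, 179 and 138 with rising dose. The 14 oocyte markers in the table, of which 10 were measured, summed to 430.4 CPM (counts relative to the scaled library total) in the control. At the doses all 14 summed to between 8.26 and 9.95 CPM, and 2 to 6 of them were at 0. The labelled tissue was checked with 8 markers of neurons, all measured, none of them at 0 in any library: they summed to 7952 CPM in the control, 8417 at the low dose, 8794 at the middle dose and 8010 at the high dose.

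All 83 genes passed a mean of 1 CPM over the 4 libraries. Their levels were compared in the authors' TPM, which divides by transcript length. The median of the 4-library mean was 777.1 TPM in the large subunit and 793.7 TPM in the small subunit. Of the 83 genes, 65 lay between 500 and 1500 TPM and 71 were among the 200 most abundant genes of the table. Summed, they held 6.62% of all TPM in the control, 5.65% at the low dose, 7.84% at the middle dose and 7.05% at the high dose.

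The highest level in the large subunit was that of rpl39, whose small protein lines the exit tunnel of the growing peptide. It had 1995 TPM in the control, 1538 at the low dose, 2361 at the middle dose and 2291 at the high dose. After it by mean level came rpl32 at 1638 TPM, rpl26 at 1411 TPM, rpl35 at 1355 TPM and rpl23a at 1353 TPM, and the last 3 of these surround the tunnel exit. In the small subunit rps29, a zinc-binding protein of the head, was highest, with 2853, 1983, 2877 and 2372 TPM in order of dose from the control. It was followed by rps21 at 1713 TPM, rps14 at 1466 TPM, rps27.2 at 1298 TPM and rps19, whose human counterpart is mutated in Diamond-Blackfan anaemia. For very short messages such as rpl39 and rps29, where the authors' counts and RPKM imply effective lengths of 129 and 144 bases, TPM depends strongly on that length.

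Only 8 genes averaged under 200 TPM, 4 in each subunit. Most were, by symbol, second genes for a protein: rps27l at 8.67 TPM, rpl7l1 at 19.6 TPM, the copy of rpl37 on chromosome 2 at 23.9 TPM, rps8b at 37.03 TPM, rpl22l1 at 100.03 TPM and rps26l at 135.3 TPM. The other two, rpl35a at 114.7 TPM and rps3 at 144.9 TPM, have no second gene by name. Their implied effective lengths were 2908 and 3289 bases against a median of 462 bases over all 83 genes, and beside their low TPM they had 295.1 and 386.3 CPM in the control. For rps26l the implied effective length was 1240 bases, against 231 bases for rps26. Its mean over the 4 libraries was 148.7 CPM, against 144.6 CPM for rps26. Also among the lowest of the large subunit was rpl5b at 368.9 TPM.

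**Figure D1:**
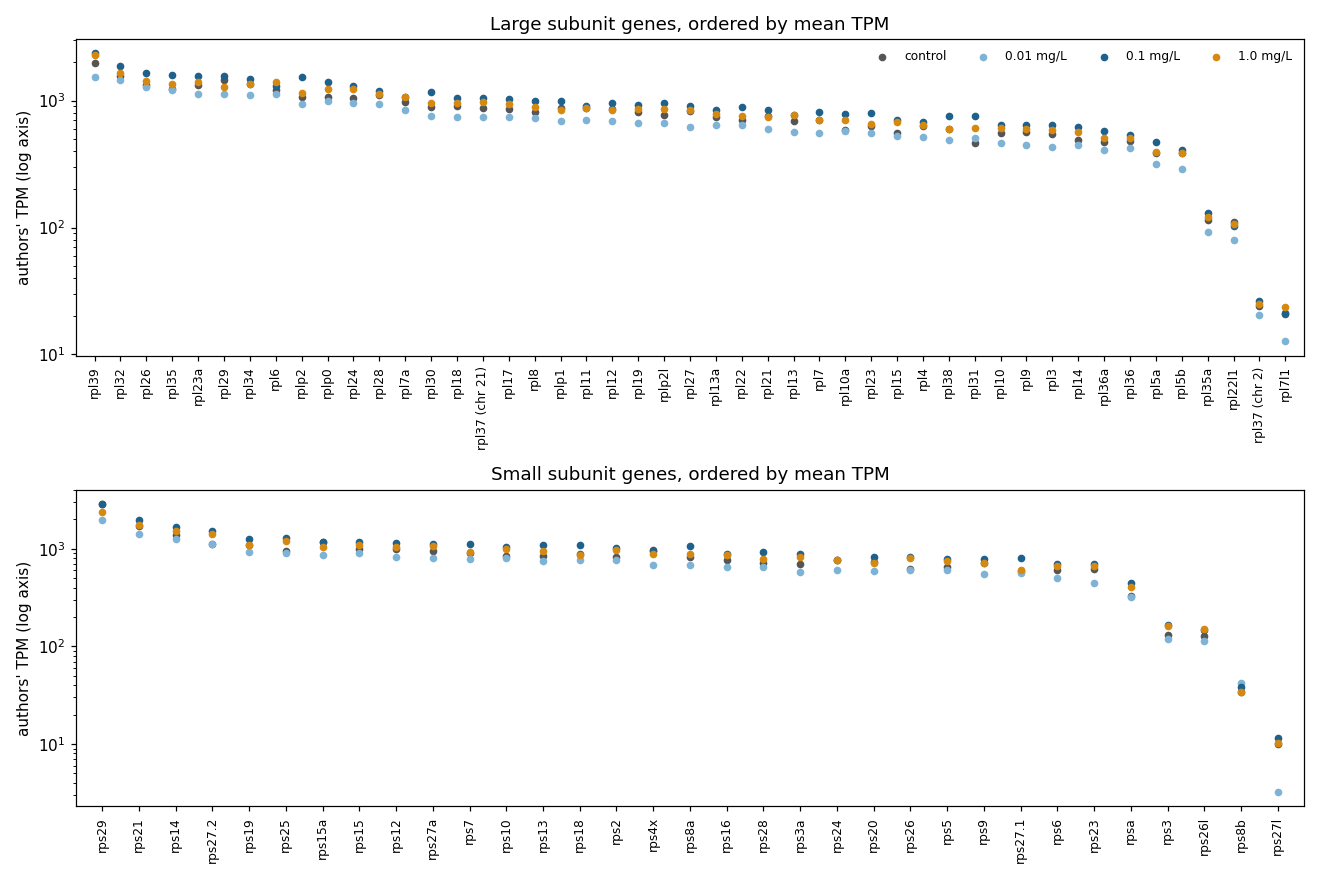
Level of each ribosomal protein gene in the 4 libraries, in the authors' TPM on a log axis, with genes on the horizontal axis ordered by their mean in each subunit and 1 coloured point per library; 80 of the 83 genes are drawn. Of the 83 genes, 65 lie between 500 and 1500 TPM by their mean, and the tail of low genes ends at rpl7l1 (19.6 TPM) and rps27l (8.67 TPM).

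Taken as a share of all counts, the genes of both subunits held 2.59% in the control (Wilson 95% interval 2.58 to 2.60), 2.43% at the low dose (2.42 to 2.44), 3.07% at the middle dose (3.06 to 3.08) and 2.803% at the high dose (2.79 to 2.81). The library at the middle dose was the highest and that at the low dose the lowest, and no 2 of these intervals overlapped. Because the mitochondrial share also differed, the same genes were set against the counts outside the mitochondrially encoded genes. There they held 3.66% in the control, 3.59% at the low dose, 4.16% at the middle dose and 3.90% at the high dose, in the same order. The large subunit took 1.58%, 1.48%, 1.86% and 1.70% of all counts in order of dose from the control, and the small subunit 1.01%, 0.950%, 1.21% and 1.11%. The ratio of large to small subunit CPM stayed between 1.53 and 1.56 in the 4 libraries.

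**Figure D2:**
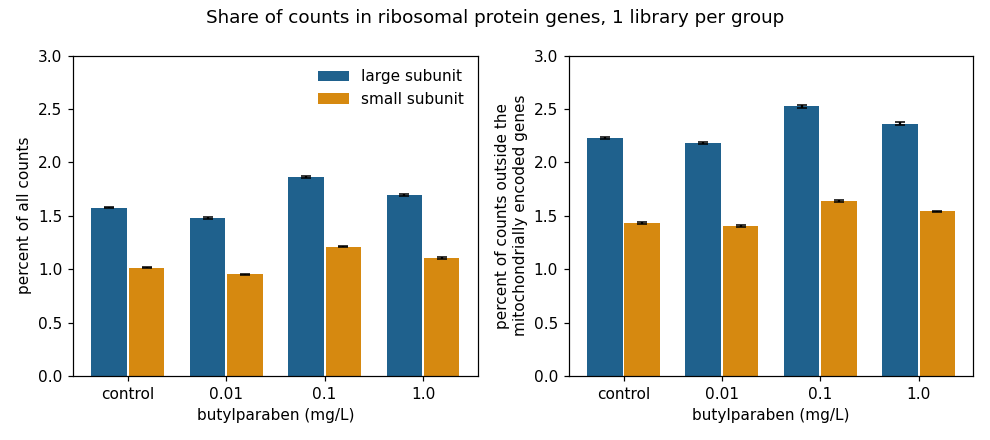
Percent of counts held by large and small subunit genes in each library, of all counts (left) and of counts outside the mitochondrially encoded genes (right), with 95% Wilson intervals as error bars. In both panels and both subunits the bar at 0.1 mg/L is the highest, at 1.86% and 1.21% of all counts.

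Against the control, ribosomal protein genes were higher at the middle dose by a small and widely shared amount, and close to the control at the doses below and above it. The median log2 ratio at the middle dose was 0.21 in the large subunit and 0.24 in the small subunit. It was 0.00 over all 16522 genes measured and 0.08 over the 1507 genes of at least 100 CPM. The latter are the fairer company for such abundant messages. Here and below, both of these wider sets include the ribosomal protein genes that reach their limit. At the high dose the subunit medians were 0.05 and 0.08, against 0.00 over all genes. At the low dose both medians were 0.03, against -0.01 over all genes. The summed CPM of both subunits was 1.18-fold the control at the middle dose (interval 1.17 to 1.18), 1.05-fold at the high dose (1.04 to 1.06) and 1.02-fold at the low dose (1.01 to 1.02). The direction at the low dose depended on the scaling: 49 of 83 genes were above the control here, but 19 by library totals, 11 in the authors' RPKM and 2 in their TPM. Here 48.6% of all genes and 55.1% of genes of at least 100 CPM were above it, shares not computed in the other settings. These settings also moved the median of all genes, to -0.12, -0.13 and -0.19, and relative to it the median of the 83 genes was 0.03, -0.04 and -0.05, against 0.04 here.

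For single genes the limit of a call was a 1.2-fold difference in CPM whose exact 95% interval left out 1. In the authors' TPM and RPKM the 1.2-fold difference alone was used, without an interval. At the middle dose 33 of the 83 genes were called higher, 18 of the large and 15 of the small subunit, where 14.4% of all genes and 19.6% of genes of at least 100 CPM were called. In the authors' RPKM the count was 21. None was called lower, where 13.8% of all genes and 7.10% of genes of at least 100 CPM were. At the low dose 4 were called higher and 3 lower, where the rates over all genes were 10.5% and 11.8%. By library totals, TPM and RPKM these counts at the low dose became 1 higher in each, and 8, 34 and 20 lower. The share of all genes called was not computed in these settings, where the median of all genes at that dose was lower too. At the high dose 3 were called higher and none lower, where 15.1% and 14.8% of all genes were. Among genes of at least 100 CPM 14.1% were called higher and 15.7% lower. At a 2-fold limit in either direction the only gene called was rps27l, lower at the low dose, where 6.05% of all genes passed at that dose, 7.39% at the middle dose and 7.26% at the high dose.

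These 3 comparisons share the control library, the one with egg coat RNA. The comparisons between doses leave it out. There, the middle against the low dose gave 22 genes called higher and 1 lower, where 11.3% and 9.62% of all genes were called. The median log2 ratio was 0.23. Among genes of at least 100 CPM 12.7% were called higher and 6.83% lower, with a median of 0.06. Between the high and middle doses none was called higher and 16 were called lower, where the rates were 10.5% and 11.1%, with a median log2 ratio of -0.17. Among genes of at least 100 CPM 3.65% were called higher and 15.7% lower in that comparison, with a median of -0.09. The 16 of 83 (19.3%) called lower thus stood near that background. Between the high and low doses, 3 were called higher and 1 lower, where the rates were 11.9% and 11%. Among genes of at least 100 CPM they were 8.29% and 14.3%. The library at the middle dose thus lay above its neighbours in dose with and without the control. Ranked over the 4 libraries, it held the highest CPM of 75 of the 83 genes, a rank it held for 25.5% of all genes and 40.2% of genes of at least 100 CPM. It was the lowest library for none of the 83, against 23.5% of all genes and 9.29% of genes of at least 100 CPM.

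**Figure D3:**
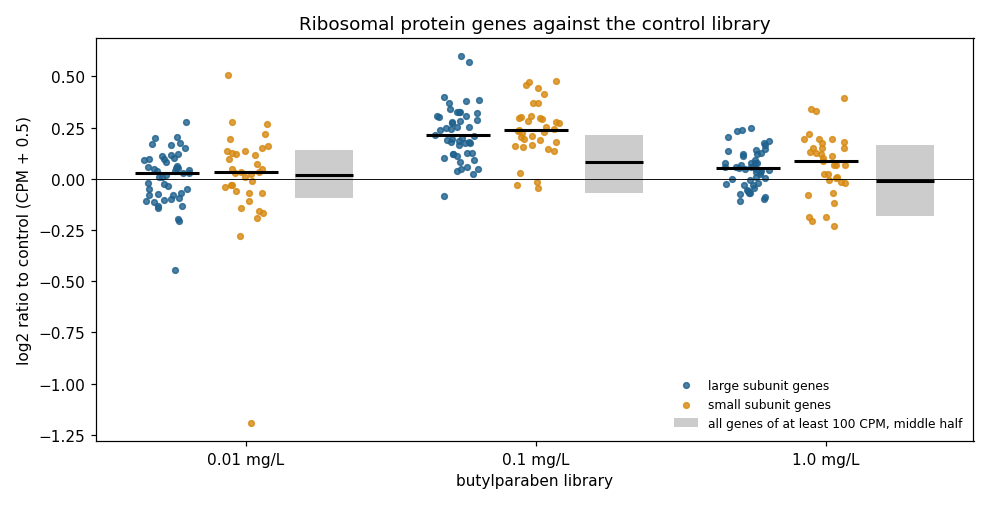
Log2 ratio of each dose to the control, of log2(CPM + 0.5), for each large subunit gene (blue) and small subunit gene (orange), with a black line at the median and a grey box for the interquartile range of the 1507 genes of at least 100 CPM. At 0.1 mg/L the medians are 0.21 and 0.24 against 0.08 for the abundant genes. Above 0 lie 79 of the 83 genes (95.2%), against 50.4% of all genes and 64.4% of the abundant genes.

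Length was looked at because ribosomal protein messages are short. Among the 147 genes of at least 100 CPM outside the set whose effective length was under 1000 bases, the median log2 ratio was 0.10 at the low dose, 0.14 at the middle dose and 0.01 at the high dose. In those of 2000 to 4000 bases it was 0.01, 0.05 and -0.04. Short abundant genes therefore stood above long ones too at the middle dose, by less than the ribosomal protein genes did. In the authors' TPM, which is set per library for length, the median of the 83 genes at the middle dose minus that of all genes was 0.18, and in RPKM 0.17, against 0.23 from counts. With the mitochondrially encoded genes left out of the counts, the medians at the middle dose were 0.21 (large) and 0.24 (small), and 33 genes were called higher. The part of length, of egg RNA in the control and of the mitochondrial share in the ratios to the control was not tested further.

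The log2 ratios of the 83 genes had a standard deviation of 0.13 at the middle dose, where counting error alone amounts to 0.055 and genes of at least 100 CPM had a standard deviation of 0.26. Noise from library preparation is not measured with 1 library per group, and it lies in these values too. At that dose the interval of 41 genes left out the ratio of the summed set, with 22 genes above it and 19 below. At the low dose this held for 51 genes and at the high dose for 36. Over the 4 libraries the highest CPM of a gene was typically 1.22 times its lowest, and it was under 1.5 times for 80 of the 83 (96.4%). Genes of at least 100 CPM had nearly the same median range, 1.21 times, with 89.98% under 1.5 times.

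**Figure D4:**
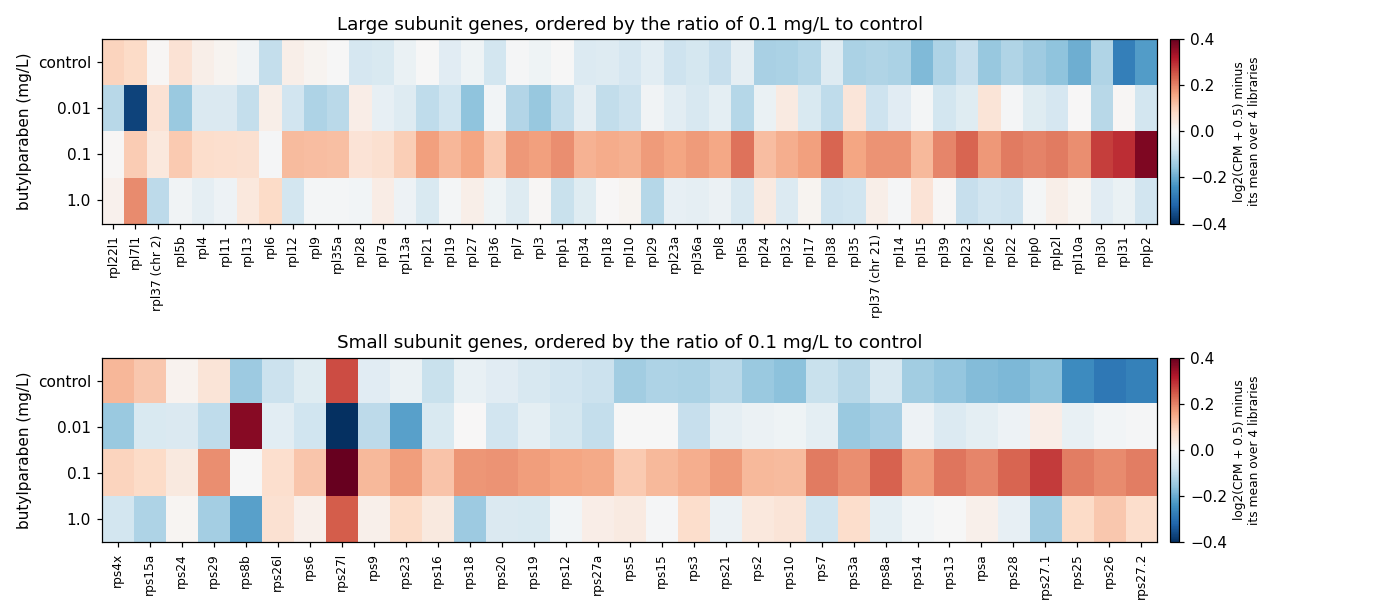
Heat map of log2(CPM + 0.5) minus its mean over the 4 libraries for each gene (columns, ordered by the ratio of 0.1 mg/L to control) and each library (rows), with red above and blue below the gene's mean; 80 of the 83 genes are drawn. The row at 0.1 mg/L is the highest for 75 of the 83 genes, and the row of the control is the lowest for 44.

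Among large subunit genes, those of the stalk differed among themselves. The stalk is the flexible arm that recruits elongation factors, built of P0, P1 and P2. The P2 gene rplp2 (ENSDARG00000101406, chromosome 6, 49508805 to 49510553, GRCz11) had 179.4 CPM in the control, 199.2 at the low dose, 271.8 at the middle dose and 198.7 at the high dose. Only the library at the middle dose was far from the others, 1.52-fold the control (interval 1.43 to 1.61), which was the highest ratio of any large subunit gene at that dose. The stalk base gene rplp0 (ENSDARG00000051783), often taken as a reference gene in PCR, had 826.2, 882.1, 1046 and 907.1 CPM in the same order and was 1.27-fold higher at the middle dose. The second P2 gene, rplp2l, had 151.4, 161.8, 195.7 and 172.3 CPM and was 1.29-fold higher, a call lost in RPKM. The P1 gene rplp1, whose protein pairs with P2, had 371.3, 347.6, 423.1 and 349.5 CPM, and its 1.14-fold difference at the middle dose was not called.

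The tunnel exit, where the new peptide leaves and chaperones dock, is ringed by a group of large subunit proteins. These were named after their values were seen, and no share is drawn from them. The gene rpl31 (ENSDARG00000053365, chromosome 9, 56225410 to 56232296) had 395.9 CPM in the control, 480.1 at the low dose, 587.2 at the middle dose and 469.6 at the high dose. It was 1.48-fold higher at the middle dose (1.43 to 1.54), it was the 1 large subunit gene called higher at the low dose (1.21-fold), and all 3 doses lay above the control. That call at the low dose was lost by library totals and in the authors' TPM and RPKM. Its neighbours rpl26 (1.25-fold), rpl35 (1.22-fold), rpl39 (1.25-fold) and rpl17 (1.21-fold) were called at the middle dose as well; in RPKM the calls of rpl26, rpl39 and rpl17 were lost, and in TPM that of rpl39. The genes rpl23a and rpl19, in the same ring, were 1.18- and 1.13-fold and were not called, and rpl4, whose protein reaches into the tunnel, was 1.03-fold.

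Other large subunit genes with high ratios at the middle dose were rpl30 with 339.5, 341.8, 447.4 and 357.8 CPM in order of dose from the control (1.32-fold) and rpl10a with 277.9, 319.1, 362.7 and 320.2 CPM (1.31-fold). For rpl30 the first 2 libraries were alike, while rpl10a was above the control at every dose. At the high dose the highest ratios included those of rpl31 (1.19-fold), rpl15 (1.18-fold), rpl10a (1.152-fold) and rplp2l (1.14-fold), none of them called. The gene rpl38, needed in mouse embryos for axial patterning, had 203.8, 196.8, 248.2 and 199.5 CPM and was called higher at the middle dose alone (1.22-fold). Near the peptidyl transferase centre, where peptide bonds form, rpl3 was 1.14-fold, rpl8 1.19-fold and rpl10 1.16-fold at the middle dose, none called.

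The particle of 5S ribosomal RNA with the proteins of rpl5 and rpl11 is known from mammals as a signal that ribosome assembly has failed. Here rpl11 had 303.4 CPM in the control, 289.3 at the low dose, 315.4 at the middle dose and 297.3 at the high dose, a range of 1.09-fold. The gene rpl5a had 280.0, 265.5, 333.7 and 274.7 CPM and rpl5b 289.3, 250.6, 298.8 and 275.2 CPM. At the low dose rpl5b was 0.866-fold the control (0.821 to 0.914), past counting error but short of the 1.2-fold limit.

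At the low end of the large subunit at the low dose lay rpl7l1, a relative of rpl7 (ENSDARG00000042864, chromosome 20, 36675083 to 36679233), with 164, 100, 150 and 161 counts in order of dose from the control. It was 0.725-fold the control at the low dose (0.559 to 0.935) and was called lower, while the control and the higher doses were alike. After it came rpl5b, rpl22l1, rpl27 (0.905-fold) and rpl9 (0.911-fold), not called. At the middle dose the lowest ratios were those of rpl22l1 (0.943-fold), rpl7l1 (1.02-fold), rpl37 on chromosome 2 (1.03-fold), rpl5b and rpl4, all with differences under 1.2-fold. At the high dose they were those of rpl37 on chromosome 2 (0.925-fold), rpl12 (0.934-fold), rplp1 (0.941-fold), rpl29 (0.950-fold) and rpl5b (0.951-fold).

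In the small subunit the highest ratios at the middle dose belonged to rps27.2, rps26, rps25, rps27.1 and rps28. The gene rps27.2 (ENSDARG00000055475, chromosome 16, 23788616 to 23800484) had 319.7 CPM in the control, 384.3 at the low dose, 444.5 at the middle dose and 405.1 at the high dose. The gene rps26 (ENSDARG00000037071, chromosome 23, 27675581 to 27677516), whose protein sits where the message leaves the subunit, had 117.7, 142.5, 163.5 and 154.7 CPM. The gene rps25 (ENSDARG00000041811, chromosome 10, 39125637 to 39130935), which in human and yeast cells serves initiation at internal entry sites, had 273.7, 319.1, 376.0 and 343.9 CPM. These were the 3 genes called higher at the high dose, 1.27-, 1.31- and 1.26-fold, and all 3 lay above the control at every dose. At the middle dose they were 1.39-, 1.39- and 1.37-fold. At the low dose rps26 and rps27.2 were called (1.21- and 1.202-fold) and rps25 was not (1.17-fold), but both calls were lost by library totals and in RPKM, and in the authors' TPM both log2 ratios at that dose were just under 0.

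The pattern of rps27.1 and rps28 was another: 192.2, 219.8, 261.8 and 195.2 CPM for rps27.1, and 182.0, 203.6, 242.3 and 201.8 CPM for rps28, whose protein neighbours that of rps26. Both were called higher at the middle dose (1.36- and 1.33-fold), and at the high dose rps27.1 was back at the control (1.02-fold). Between the high and middle doses rps27.1 was 0.746-fold, the lowest such ratio in the small subunit, and rplp2 was 0.731-fold, the lowest in the large. The other 10 small subunit genes called higher at the middle dose included rpsa, known also as the laminin receptor, with 622.1, 682.9, 803.5 and 712.7 CPM (1.29-fold), rps13 (1.29-fold), rps14 (1.24-fold, a call lost in RPKM) and rps3 (1.21-fold), whose protein lies at the message entry, and the rest, rps10, rps2, rps21, rps3a, rps7 and rps8a, were between 1.21- and 1.23-fold, with all of these calls but that of rps8a lost in RPKM. In the decoding region, rps15 was 1.19-fold and rps23 1.14-fold, neither called. The gene rps6, whose protein is phosphorylated by the kinase downstream of mTOR and is widely used as a readout of that pathway, had 344.7, 337.2, 384.9 and 361.5 CPM, and its 1.12-fold difference at the middle dose was not called. At the high dose rps10 (1.16-fold) and rps3 (1.146-fold) came next after the 3 called.

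A few small subunit genes did not share the higher level at the middle dose. The gene rps4x (ENSDARG00000014690, chromosome 7, 51633815 to 51639699) had 594.2 CPM in the control, 488.9 at the low dose, 576.7 at the middle dose and 514.9 at the high dose. The control was its highest library, and it was called lower at the low dose, at 0.823-fold (0.792 to 0.854). The gene rps15a had 275.1, 245.2, 269.8 and 234.3 CPM. For both the control was the highest library and no dose lay above it. They, with rps24 (1.02-fold) and rps29 (1.097-fold), had ratios among the lowest at the middle dose in small subunit genes of at least 5 CPM. At the low dose rps23 (0.877-fold) and rps29 (0.898-fold) were also among the lowest, and at the high dose rps15a (0.852-fold), rps4x (0.867-fold), rps29 (0.878-fold) and rps18 (0.923-fold) were.

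The gene with the widest difference was the rarest. The gene rps27l (ENSDARG00000100513, chromosome 25, 34641536 to 34650374) resembles rps27. It had 56 counts in the control, 18 at the low dose, 57 at the middle dose and 50 at the high dose, which is 4.99, 1.91, 5.65 and 4.92 CPM. The library at the low dose alone was low, at 0.382-fold the control (0.211 to 0.660), and the library at the middle dose was 2.97-fold above it. In the authors' deposited table it was the 1 gene of the set marked as changed at the low dose, with a log2 fold change of -1.39. No gene of the set was marked at the other doses. Of the 32520 genes listed, 1289, 1393 and 1396 were marked in order of rising dose. Its messages are few, so RSEM's division of reads among the 3 genes for this protein could move its count.

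Judged by symbol, 8 proteins had more than 1 gene, 17 genes in all, among them 2 loci listed as rpl37, on chromosomes 21 and 2. Pairs of symbols such as rpl7 and rpl7a, or rps3 and rps3a, are different proteins and do not belong here. Whether genes grouped by symbol, such as rpl7 and rpl7l1, code for the same ribosomal protein was not checked. RSEM divides reads among like transcripts, so the division within a protein is less certain than its sum. By TPM, 1 gene led in most: rps8a held 96.1% of its protein's TPM in the control, rpl7 97.1%, rpl37 on chromosome 21 97.3%, rpl22 86.5% and rps26 82.8%. By counts rps26 did not lead, as rps26l held 54.3% of them in the control. The genes rpl5a and rpl5b were near parity, with 49.8% and 50.2%, rplp2 held 58.0% to 42.0% for rplp2l, and rps27.2 held 64.9% to 34.5% for rps27.1.

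Across libraries, the share of a protein's counts moved past counting error in several of these. The minor gene rps8b (ENSDARG00000057368) held 6.92% of the counts of its protein in the control (Wilson interval 6.25 to 7.66), 10.02% at the low dose (9.14 to 10.97), 6.27% at the middle dose (5.65 to 6.94) and 6.50% at the high dose (5.82 to 7.25). Only the library at the low dose stood apart, and there rps8b was 1.43-fold the control (1.24 to 1.65) while rps8a was 0.954-fold. The share of rps27.1 was 37.2%, 36.3%, 36.8% and 32.3% in order of dose from the control, with the high dose alone below the rest. The share of rplp2l was 45.8%, 44.8%, 41.9% and 46.4%, lowest at the middle dose, where rplp2 was high. The share of rpl22l1 was 15.3%, 12.7%, 11.9% and 14.3%, and in zebrafish blood formation rpl22 and rpl22l1 are known to act against each other. The share of rps26l was 54.3%, 50.3%, 48.8% and 50.1%, highest in the control.

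**Figure D5:**
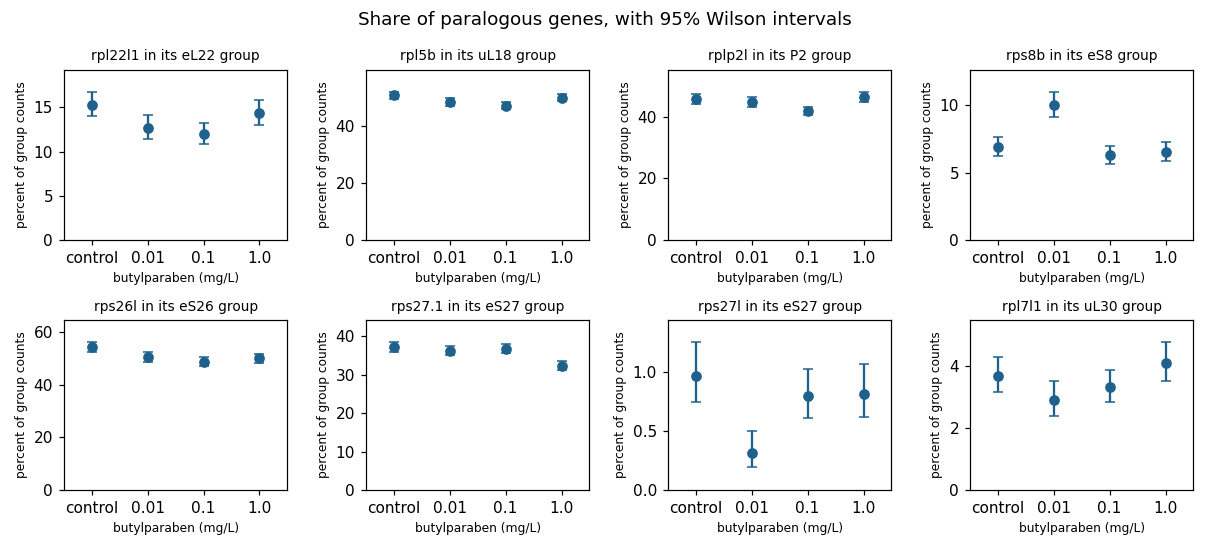
Share of a protein's counts held by 1 of its genes in each library (percent, with 95% Wilson intervals), for 8 genes whose groups have more than 1 member, each panel with its own vertical axis from 0. The share of rps8b is 10.02% at 0.01 mg/L against 6.27% to 6.92% elsewhere, and that of rps27.1 is 32.3% at 1.0 mg/L against 36.3% to 37.2% elsewhere.

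Some ribosomal proteins have names outside the rule. The gene faua codes for ribosomal protein S30 joined to a ubiquitin-like protein. It had 185.9 CPM in the control, 221.9 at the low dose, 258.7 at the middle dose and 226.1 at the high dose, 1.39-fold higher at the middle dose. Its second copy faub had 11.8, 8.15, 6.35 and 6.10 CPM, 0.536-fold the control at the middle dose. The scaffold gene rack1 was 1.04-fold at the middle dose. As most genes of the named set, faua was highest at the middle dose. The gene rps19bp1, which the name rule takes but which is no ribosomal protein, had 20.4, 18.7, 15.97 and 16.3 CPM and was called lower at the middle dose (0.783-fold) and the high dose (0.800-fold, a call lost by library totals and in TPM).

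The machinery around the ribosome was described with lists of textbook genes, to be read against the shares of all genes called at the middle dose, 14.4% higher and 13.8% lower, and their median of 0.00. Ribosome biogenesis factors, 66 measured, had a median log2 ratio of 0.01 at the low dose, 0.13 at the middle dose and 0.15 at the high dose. At the middle dose 18 were called higher and 4 lower. At the high dose 20 were called higher and 1 lower, where 15.1% and 14.8% of all genes were. The ribosomal RNA methyltransferase gene nop2 had 10.3, 11.4, 18.0 and 14.4 CPM, and the helicase gene ddx10 11.5, 17.3, 19.3 and 16.2 CPM, so both were above the control at every dose. Lowest at the middle dose were ddx52, at 14.2, 7.83, 9.52 and 9.34 CPM, and the methyltransferase gene emg1, 0.676-fold. For this list the median at the high dose was not below that at the middle dose, unlike in the ribosomal protein genes.

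Of 47 initiation factor genes, 7 were called higher and 2 lower at the middle dose, with a median of 0.14. Among the 47, eif3d was 1.295-fold, eif5 1.26-fold and eif3jb 0.713-fold. The gene eif6, which keeps the large subunit from joining too early, was 0.843-fold and not called. At the 2-fold limit 1 gene of this list was called lower, and it is none of those named. Of 15 genes listed as elongation factors 3 were called higher and 2 lower, with a median of 0.00. The neuronal elongation factor gene eef1a2 had 45.6, 55.3, 64.7 and 45.6 CPM, and eef1a1l2 had 320.3, 283.6, 250.4 and 228.2 CPM, lower at each higher dose. The rare eef2a.1 was 2.12-fold and eef1e1 0.660-fold at the middle dose. Whether every gene of this list, such as eef1e1, acts in elongation was not checked. The 20 other genes whose mammalian messages carry the TOP motif, a list that shares faua, faub, rack1 and several translation factors with the groups here, had a median of 0.10, with 3 called higher and 2 lower. The lowest of them after faub was hnrnpa1a, 0.800-fold.

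The ribosome of the mitochondrion is built from other nuclear genes. Of its 74 protein genes 10 were called higher and 2 lower at the middle dose, with a median of 0.09. The gene mrpl12 had 30.8, 38.005, 46.3 and 37.2 CPM and mrpl39 21.7, 26.8, 30.7 and 27.6 CPM, both highest at the middle dose. Lowest were mrps5 (0.612-fold) and mrps2 (0.688-fold). The 78 nuclear genes of oxidative phosphorylation, also short and abundant, had medians of 0.06 at the low dose, 0.11 at the middle dose and -0.01 at the high dose, with 11 called higher and 1 lower at the middle dose. There atp5mf was 1.97-fold and ndufb3 1.35-fold, and cox4i1l was 0.686-fold and uqcrq 0.887-fold.

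Among 24 genes of growth control by mTOR and Myc, which include rps6, 3 were called higher and 5 lower at the middle dose, with a median of 0.03. The kinase gene mtor had 54.8, 59.2, 66.2 and 51.2 CPM, 1.21-fold at the middle dose. The Myc partner gene max had 237.8, 289.3, 347.5 and 326.8 CPM and was above the control at every dose. The gene myca, a Myc itself, had 20.6, 12.9, 13.9 and 12.49 CPM, with the control alone high, and larp1b, of the family that binds TOP messages, was 0.604-fold at the middle dose. Among 15 genes of the response to ribosomal stress, which include rps27l, 5 were called higher and 1 lower at the middle dose, with a median of 0.27. The cell death gene baxa had 24.2, 25.4, 37.7 and 37.3 CPM. The gene bbc3 was 1.11-fold and sesn3, a stress-response sestrin, 0.743-fold at the middle dose. Each of these lists was named with earlier results of these libraries known, and their values describe the libraries.

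Markers of brain cell types are given beside these values by their sums and by the median log2 ratio of the single markers, and their part in the results was not tested. Sums run over all listed markers in the table, and medians over those measured, whose number stands in brackets. The neuron markers, whose sums stand above, had medians against the control of -0.13 at the low dose, 0.13 at the middle dose and -0.02 at the high dose, so their sum and median differed in sign at the low and high doses. Markers of oligodendrocytes, all 6 measured, summed to 10444 CPM in the control, 16219 at the low dose, 13043 at the middle dose and 11693 at the high dose, while their medians were 0.06, 0.09 and -0.01. Those of astroglia (6 of 6) summed to 4257, 3704, 3654 and 3903 CPM, with medians of -0.34, -0.18 and -0.03, and were highest in the control by both measures. Red blood cell markers (7 of the 8 in the table, with 1 of the 8 at 0 throughout) summed to 559.1, 601.3, 510.0 and 404.4 CPM, with medians of -0.16, -0.21 and -0.62. Proliferation markers (8 of 8) summed to 75.3, 58.3, 62.8 and 63.4 CPM, with medians of -0.42, -0.29 and -0.13. Microglia markers (6 of 8) summed to between 246.8 and 297.5 CPM, with medians of -0.06, 0.10 and -0.16. Endothelial markers (6 of 6) summed to between 69.6 and 84.7 CPM, with medians of 0.20, 0.07 and -0.16. Skeletal muscle markers (5 of 7) summed to between 14.8 and 21.1 CPM, with medians of 0.05, -0.17 and -0.26.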

How the data were processed

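Brain RNA of 4 zebrafish groups, 1 library each, was read as 151 bp paired ends from a stranded mRNA kit, per the labels' protocols. The submitters' processing notes name RSEM 1.3.1, STAR 2.7.1a, cutadapt 2.8 and the build GRCz11, with no roles. The table that the authors deposited gives 32520 genes with an expected count, an RPKM and a TPM value per gene and library, per the file headers. The counts are whole numbers, and at 141 of the zeros the RPKM is above 0; they were therefore treated as RSEM's expected counts made whole. The authors' log2 fold change and p-value for each dose stand in the same table, per the file headers, and the test behind them is not given in the sources used here. No column of counts, RPKM or TPM was left unmapped to a sample.

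Counts were scaled with TMM factors over all genes (edgeR 4.0.16, R 4.3.3), 1.01 for the control and 0.931, 1.02 and 1.04 for the rising doses, and 16522 genes averaging 1 CPM or more were kept. Log2 ratios are of CPM + 0.5, and folds are ratios of CPM. Intervals of a ratio are exact (Clopper-Pearson, 95%, given the summed count of the pair), those of a share are Wilson's, and both cover counting error only. Levels between genes were compared in the authors' TPM. Effective length was computed from the authors' counts and RPKM. The steps were tested on simulated data. Other work used matplotlib 3.10.9, scipy 1.17.1, pandas 2.3.3 and numpy 2.4.6 in Python 3.11.15.

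The genes and lists were chosen with earlier results of these data known. Named were the 5 highest and 5 lowest genes per subunit by mean TPM and, above a mean of 5 CPM, by log2 ratio at each dose, all genes of proteins with more than 1 gene, and the 2 highest and 2 lowest of each other list at 0.1 mg/L. A few genes that this rule names are not reported here, though they count in all totals. Others, such as rpl38, rpl11, rps6, rpsa and the tunnel exit genes, were named for their known roles after their values were seen. Alternatives were DESeq2 1.42.0 size factors, library totals, filters, pseudocounts, equal depth by thinning, totals without mitochondrially encoded genes, the authors' TPM and RPKM, leaving out proteins with a second gene, and, added after seeing the data, TMM factors over the kept genes.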

Additional observations from a re-analysis of the deposited data

How the results depend on the processing

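Of 144 values of the medians and of the counts of genes called, each under 1 of 12 alternatives, 119 stayed within 1.5 times the count or within the rank interval of the median. Part of these values could not move. The pseudocount does not enter a call, and without the filter the same 83 genes and scaling were used. The tally therefore overstates how far the results were tried. At 0.1 mg/L between 75 and 80 of the 83 genes lay above the control in every setting that kept them all (mean of at least 5 CPM keeps 82, of which 78 were above), and the count called higher went from 33 to 21 in the authors' RPKM, where the medians were 0.16 (large) and 0.17 (small). In the main setting 50.4% of all genes and 64.4% of genes of at least 100 CPM lay above the control, shares not computed in the other settings. At 0.01 mg/L the medians were -0.092 and -0.087 by library totals, -0.24 and -0.22 in TPM and -0.17 and -0.16 in RPKM (large and small). Those settings also moved the median of all genes, to -0.12, -0.19 and -0.13, and relative to it the median of the 83 genes was 0.03, -0.05 and -0.04. Genes called higher at that dose were 1 by library totals, TPM and RPKM, and genes called lower were 8, 34 and 20. Calls in TPM and RPKM rest on the fold alone, without an interval. The share of all genes called was not computed by library totals, TPM or RPKM, so these counts have no background beside them. At 1.0 mg/L the large subunit median was 0.094 by library totals and 0.093 in TPM, genes called higher were 6, 8 and 5 by library totals, TPM and RPKM, and 1 was called lower in TPM and 1 in RPKM. Over the 66 genes of proteins with no second gene, the calls were 1 higher and 1 lower at the lowest dose and 1 higher at the highest. These were rpl31, rps4x and rps25. The other genes called at these doses (rps26, rps27.2, rps8b, rps27l and rpl7l1) belong to proteins with more than 1 gene. The calls of rps27l, rps4x and rpl7l1 as lower and of rps8b as higher at 0.01 mg/L held under each alternative that kept the gene. Among single genes called, rps26 and rps27.2 at 0.01 mg/L changed direction, to -0.028 and -0.0010 in TPM. The cause of these shifts was not tested. No paired analysis was possible because each group holds 1 library, and for the same reason no library could be left out of a group. RSEM's division of reads limits the values of like genes, and 18 to 57 counts limit those of rps27l.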
